A study of Rattus norvegicus with 24 samples.

Results

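The genes described here encode proteins of presynaptic vesicle release, and they were taken as a fixed list of 38 gene symbols found among the non-control probes of a rat expression array. Of the 38 members, 37 passed the filter on dim probes and were tested, among 20902 genes tested in all. The member left out was Syn3, a synapsin, whose probe was well above background on 2 of 24 arrays. Each member was represented by its kept probe with the highest mean signal. Its level on an array is the log2 processed signal minus the upper quartile of the non-control probes of that array, so a difference of 1 is a doubling of signal. Levels of different members are not compared, since each comes from its own probe.

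A nerve terminal stores transmitter in vesicles that are held in clusters by synapsins, docked at the active zone, primed, fused with the membrane and then retrieved. SNARE proteins on the vesicle and on the plasma membrane zip together to drive fusion, complexins hold and promote that step, and synaptotagmins act as its calcium sensors. In the dorsal striatum, RNA of a dissected block comes from cell bodies, mainly those of projection neurons and glia. The long-range axons that supply the striatum with dopamine and glutamate have their cell bodies, and most of their RNA, elsewhere.

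Male Long Evans rats aged 80 to 90 days gave the RNA, which was isolated from the dorsal striatum of the left hemisphere, and the study asked how MDPV (methylenedioxypyrovalerone), a synthetic cathinone that blocks dopamine uptake, affects striatal expression. Each rat had 1 intraperitoneal injection on each of 5 days. Saline rats had only saline, acute rats had 4 saline injections and then MDPV at 1 mg/kg, and chronic rats had 5 MDPV injections at that dose. Tissue was collected 24 h later, so acute and chronic rats were at the same interval from their last dose. There were 8 arrays per group on 3 slides, and arrays sharing a title letter were averaged into 18 units, 6 per group, the number per group that the series design states. The labels do not state that every unit is a separate animal, so p-values measure the spread between these units, which may in part be technical.

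Between 50.7% and 71.3% of non-control spots per array were well above background and none were saturated. Markers of striatal projection neurons were measured at all 15 of 15 listed genes, with a mean level per array between 3.22 (saline replicate 4) and 5.00 (saline replicate 2). Several arrays stood apart in markers of neighbouring tissue. Saline replicate 4 was lowest of 24 in the striatal list and highest in the thalamus, hypothalamus and oligodendrocyte lists. The mean of 9 measured cortex markers was lowest on saline replicate 5 (-2.62), chronic replicate 8 (-2.48) and saline replicate 4 (-2.03), and highest on saline replicate 3 (0.69). The part of such tissue in the results was not tested, and in a block of tissue fewer cells of a type and less RNA per cell cannot be told apart.

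No member passed the adjusted threshold in any comparison of the 3 groups. The limma fit with Benjamini-Hochberg adjustment over all 20902 genes called 0 members and 0% of genes in acute against saline, 0 members and 0% in chronic against saline, 0 and 0% in chronic against acute, and 0 and 0% in the F test over the 3 groups. At an unadjusted p under 0.05, 1 member was lower in acute than saline against 1.65% of all genes. In chronic against saline 2 members were higher, Unc13b and Syt1, against a background of 2.94%. That count was 0 without chronic replicate 4 and without the chronic or the saline unit of replicates 2 and 5. With only these groups in the fit it was also 0. Without saline replicate 7 it was 4, and 1842 of 20902 genes reached that p. On slide 2 alone it was 13, with 2062 genes. On slide 3 alone it was 6, with 1036 genes, and there only 9 of 37 members lay higher in chronic. No member reached it in chronic against acute, where 2.49% of genes did, and 1 member did in the F test, where 1.76% did. Not a single member had groups of units that did not overlap, a separation found in 0.0431% of genes for acute against saline, 0.0526% for chronic against saline and 0.206% for chronic against acute. The median standard error of a member's difference was 0.145, with 6 units a group.

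As a list, the members lay slightly higher in the chronic group. The median difference was 0.09 in chronic against saline, with 32 of 37 members higher, beside a median of 0.00 over all genes, and 0.12 in chronic against acute, with 27 of 37 higher, beside -0.01 over all genes. In acute against saline the median was 0.02, with 20 of 37 higher, beside 0.01. Both chronic comparisons use the same chronic units, and both comparisons with saline use the same saline units. By role, all 8 synaptotagmins, all 3 retrieval genes and 7 of 8 SNARE machinery genes were higher in chronic than saline. So were 5 of 6 active zone genes and 9 of 12 vesicle proteins. Role medians lay between 0.08 and 0.14. Over all genes, 10473 of 20902 were higher. Members varied together over the arrays, so these counts are not separate evidence. Syt11 counted as higher at 0.00. Other kept probes of Syt11 and Syt4 gave -0.03 and -0.06, while those of Syt1, Syt2 and Syt7 were positive. Of the cortex markers 8 of 9 also lay higher in chronic than saline, with a median difference of 0.52, as did 15 of 15 striatal projection neuron markers, with a median of 0.14. Markers of other tissue lay lower in chronic than saline, 6 of 6 measured for choroid plexus (median -2.05, 4 at an unadjusted p under 0.05), 7 of 8 for thalamus, septum and pallidum (-0.44, 2 at that p) and 12 of 12 for oligodendrocytes (-0.11). None of these markers was called. Choroid plexus level was highest, at 2.77, on both saline replicate 5 and chronic replicate 8, the arrays on which the mean level of the members was lowest. Their part in the members' shift was not tested.

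**Figure D1:**
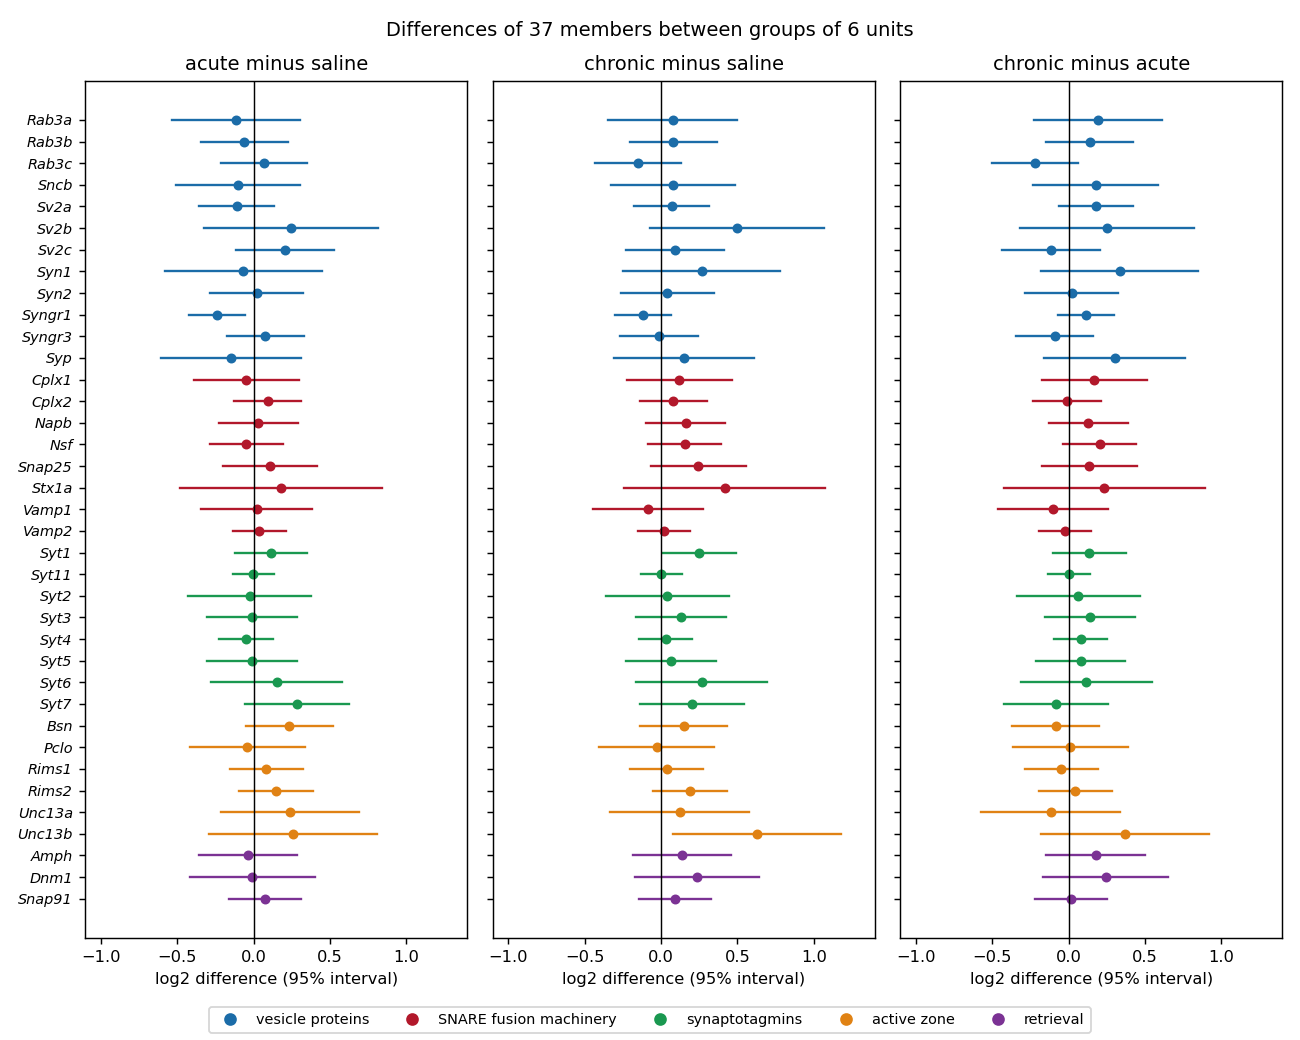
Differences of the 37 members between groups (x axis, log2, points with 95% intervals from the limma fit) in the 3 comparisons, by role. Most points in the chronic against saline panel lie right of 0, and there only the intervals of Unc13b and Syt1 exclude 0.

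The shift was not the same on the 3 slides, of which 2 held 3 saline, 2 acute and 3 chronic arrays each and slide 3 held 2, 4 and 2. The median member difference in chronic against saline was 0.12 on slide 1, 0.36 on slide 2 and -0.26 on slide 3. For chronic against acute it was 0.09, 0.27 and -0.12, and for acute against saline 0.09, 0.10 and -0.13. Cortex marker level differed in the same directions in the chronic comparisons, by 0.25, 1.84 and -1.35 for chronic against saline on slides 1, 2 and 3 and by 0.44, 1.31 and -1.24 for chronic against acute, and in acute against saline by -0.19, 0.53 and -0.11. Slide 2 held the saline arrays low in cortex markers, replicates 4 and 5, and slide 3 held chronic replicate 8. Members with 1 sign on all 3 slides numbered 4 of 37 in acute against saline (10.8%, against 14.6% of genes), 2 in chronic against saline (5.41%, against 11.6%) and 5 in chronic against acute (13.5%, against 25.9%). These shares were below the background in each comparison.

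**Figure D2:**
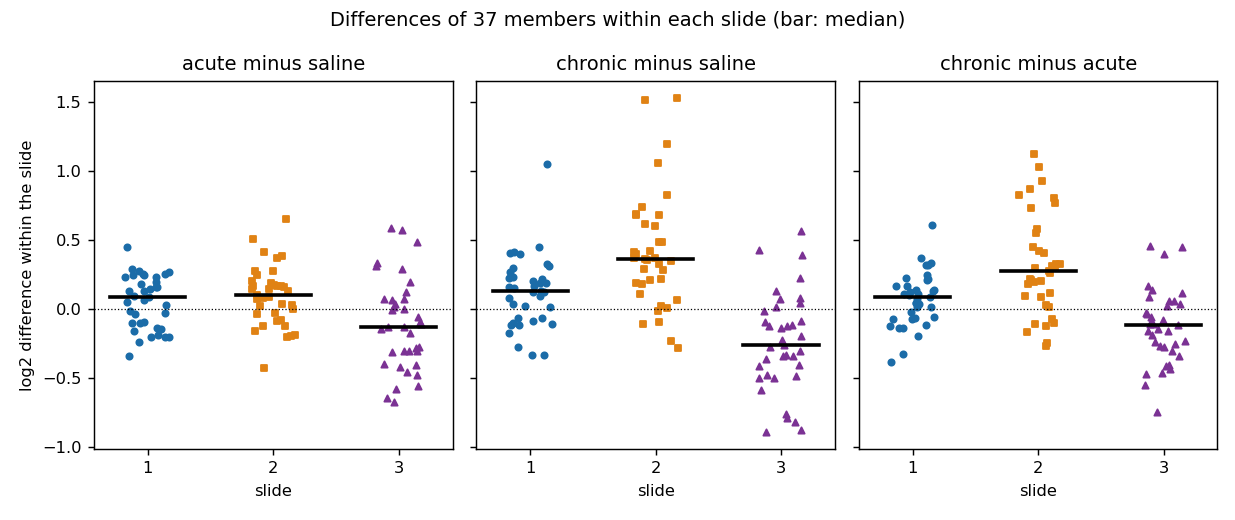
Differences of the 37 members (y axis, log2) computed within each slide (x axis), 1 point per member, with the median as a bar. In all 3 comparisons the median lies above 0 on slides 1 and 2 and below 0 on slide 3.

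Among the vesicle proteins, Syngr1 had the smallest p in acute against saline. Synaptogyrin 1 is a multi-pass protein of the vesicle membrane. Its level over saline units ran from -1.86 to -1.53 (median -1.70), over acute units from -2.08 to -1.81 (median -1.93) and over chronic units from -2.11 to -1.62 (median -1.77). The acute units lay low within a range that overlapped the saline one. The acute minus saline difference was -0.24 (SE 0.09, 95% limits -0.42 and -0.05, 6 units a group, limma with Benjamini-Hochberg adjusted p = 0.999), and it was negative on each slide, at -0.24, -0.19 and -0.31. A second kept probe of the same gene did not follow the first over the arrays (r = -0.24 over 24 arrays) and gave 0.11 in that comparison. The probe sequences, as deposited, are shown because they disagree. The one used is placed by the files at chr7:118328330-118345868 of rat build rn4, plus strand, a range longer than the probe itself, and the other at chr7:118349183-118349242, plus strand.
Syngr1 probe used: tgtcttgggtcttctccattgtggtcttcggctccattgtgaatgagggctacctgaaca
Syngr1 other probe: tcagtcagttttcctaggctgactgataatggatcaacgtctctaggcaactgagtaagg

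Sv2b, a vesicle glycoprotein that modulates readiness for release, had a large spread. It ranged over saline units from 0.48 to 2.60 (median 2.02), over acute units from 1.86 to 2.29 (median 2.09) and over chronic units from 1.91 to 2.76 (median 2.36). Its low values were saline replicates 4 (0.48) and 5 (0.97), both low in cortex markers, and the groups overlapped. The chronic minus saline difference of 0.50 (SE 0.27, limma with Benjamini-Hochberg adjusted p = 1) was 0.31 and 1.51 within slides 1 and 2 and -0.59 within slide 3. Sv2a, the glycoprotein that binds the antiepileptic levetiracetam, had 1 of the 3 smallest p in chronic against acute, at 0.18 (SE 0.12, limma with Benjamini-Hochberg adjusted p = 0.961). Its medians were 2.89 in saline (2.71 to 3.02), 2.75 in acute (2.36 to 3.06) and 2.97 in chronic units (2.73 to 3.18), so the groups overlapped almost wholly. Sv2c, the paralog typical of basal ganglia, spread from -2.27 to -1.11 over the 24 arrays, lowest on saline replicate 4.

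Rab3 proteins are GTPases that ride on vesicles and bind active zone scaffolds. Rab3c was among the 3 smallest p in chronic against acute, where it differed by -0.22 (SE 0.13, limma with Benjamini-Hochberg adjusted p = 0.961). Its units lay between -1.35 and -0.58 in saline (median -0.97), -1.23 and -0.61 in acute (median -0.84) and -1.26 and -0.67 in chronic (median -1.19). The groups overlapped, and every chronic unit but replicate 1 lay at -1.15 or lower. Rab3a ranged from 3.05 to 4.57 over arrays (SD 0.42) and Rab3b had an SD of 0.26 around a median of 1.94, and both differed between groups by no more than 0.19 in size.

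Of the remaining vesicle proteins, Syn1 varied most. Synapsin 1 ties vesicles to the cytoskeleton in the reserve pool, and its level ran from 2.30 (saline replicate 5) to 4.34 (chronic replicate 2) over the 24 arrays, with an SD of 0.54. Syn2, its paralog, ran from 2.92 to 3.92 (SD 0.28). Synaptophysin (Syp), a major vesicle membrane protein that binds synaptobrevin, had its lowest level, -0.57, on chronic replicate 8 and its highest, 1.19, on chronic replicate 2 (SD 0.47). Both ends of the Syp range thus fell in 1 treatment group. Syngr3, a relative of Syngr1 that has been found with the dopamine transporter, spanned 3.88 to 4.76 (SD 0.23). Sncb, beta-synuclein, spanned 3.31 to 4.67 (SD 0.40). None of these had an unadjusted p under 0.05 in any comparison.

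Within the SNARE fusion machinery, Stx1a had the largest spread of all members. Syntaxin 1A is the plasma membrane SNARE on which the fusion complex is built. Its level on the 8 saline arrays was 4.52, 3.80, 5.43, 3.32, 2.96, 4.77, 4.81 and 5.06 for replicates 1 to 8. On the acute arrays it was 3.87, 5.11, 4.09, 4.10, 4.84, 4.87, 4.77 and 4.73, and on the chronic arrays 4.54, 4.80, 5.08, 5.24, 4.96, 5.43, 4.98 and 3.12. The low arrays were saline replicates 5 and 4 and chronic replicate 8, the same 3 arrays that were lowest in cortex markers. The range over arrays was 5.55-fold and the SD 0.70, larger than that of 95.3% of genes. The probe was printed 10 times on each array, and the median SD between those spots was 0.049, so the spread between arrays was 14.1 times the spread between spots. Chronic minus saline was 0.42 (SE 0.31), with 95% limits of -0.24 and 1.08, and the groups overlapped. The probe and the promoter of Stx1a are shown because this gene varied most. The probe is placed by the files at chr12:22737112-22737171 of rn4, minus strand. The promoter window, 250 bases before to 50 after the start in RefSeq's GRCr8, minus strand of chr12:27306422-27306721, has 4 matches to the GC box letters GGGCGG in capitals, counted on either strand.
Stx1a probe: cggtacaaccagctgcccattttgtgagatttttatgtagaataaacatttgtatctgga
Stx1a promoter: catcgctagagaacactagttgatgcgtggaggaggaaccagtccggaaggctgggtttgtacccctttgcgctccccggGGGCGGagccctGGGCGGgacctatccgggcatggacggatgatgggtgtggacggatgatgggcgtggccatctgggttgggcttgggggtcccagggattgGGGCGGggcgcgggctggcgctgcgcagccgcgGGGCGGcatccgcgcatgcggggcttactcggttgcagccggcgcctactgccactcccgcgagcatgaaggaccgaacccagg

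Vamp2, the vesicle SNARE synaptobrevin 2, was by contrast among the 3 members with the smallest SD. Over saline units it ran from 7.20 to 7.64 (median 7.31), over acute units from 7.28 to 7.55 (median 7.39) and over chronic units from 7.19 to 7.48 (median 7.39). The groups overlapped, and no difference between them was above 0.04 in size. Snap25, the membrane SNARE partner of syntaxin, ran from 4.85 (saline replicate 4) to 6.07 (chronic replicate 6), with an SD of 0.32. Vamp1, synaptobrevin 1, ran from 3.47 to 5.03, the latter on saline replicate 4. The probes used for the SNARE genes thus had unlike spreads. Probes of 1 gene could differ as well, since the kept probes of Vamp1 had SDs of 0.34, 0.17 and 0.29.

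Nsf, the ATPase that takes spent SNARE complexes apart, had the smallest p of any member in chronic against acute. Its units ran from 3.40 to 3.70 in acute (median 3.55), from 3.59 to 3.98 in chronic (median 3.75) and from 3.04 to 3.82 in saline (median 3.69), and all overlapped. Chronic minus acute was 0.20 (SE 0.11, limma with Benjamini-Hochberg adjusted p = 0.961), and it was positive on each slide, at 0.16, 0.01 and 0.17. Napb, the adaptor that loads Nsf onto SNARE complexes, spanned 3.01 to 4.06. The complexins spanned 2.40 to 3.54 for Cplx1 and 6.28 to 7.03 for Cplx2, the lower end of Cplx2 again being saline replicate 4.

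Syt1, the fast calcium sensor of most forebrain synapses, was higher in chronic than saline at an unadjusted p under 0.05. It ran from 4.16 to 4.87 in saline units (median 4.62), 4.62 to 4.80 in acute units (median 4.65) and 4.63 to 5.08 in chronic units (median 4.81). The lowest saline units were replicate 4 and the mean of replicates 2 and 5, and the groups overlapped. The difference was 0.25 (SE 0.11, 95% limits 0.01 and 0.49, 6 units a group, limma with Benjamini-Hochberg adjusted p = 1). It was 0.32 and 0.60 within slides 1 and 2 and -0.34 within slide 3. The 2 other kept probes of Syt1 gave 0.08 and 0.03 in the same comparison.

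Syt7, a slower sensor of high calcium affinity, had the smallest p after Syngr1 in acute against saline, with units from -3.32 to -2.49 in saline (median -2.94), -2.96 to -2.20 in acute (median -2.71) and -2.99 to -2.32 in chronic (median -2.69). The ranges overlapped, and the difference of 0.28 (SE 0.16, limma with Benjamini-Hochberg adjusted p = 0.999) was -0.16 within slide 1. A second kept probe of Syt7 gave 0.02 in that comparison. Syt11 and Syt4, relatives that bind calcium weakly or not at all, were with Vamp2 the 3 members of smallest SD. Syt11 had medians of 5.90 in saline (5.79 to 6.00), 5.88 in acute (5.78 to 6.03) and 5.88 in chronic units (5.81 to 5.99), and only 0.45% of genes had a smaller SD over arrays. Its chronic minus saline difference was 0.00, with 95% limits of -0.13 and 0.14. Syt4 had medians of 3.06 in saline (2.89 to 3.29), 3.01 in acute (2.93 to 3.11) and 3.10 in chronic units (2.82 to 3.26), again overlapping.

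The other synaptotagmins spread more. Syt2, the fast sensor that prevails in hindbrain, spanned -1.68 to -0.16 over arrays (SD 0.36), Syt3 -0.71 to 0.58 (SD 0.30) and Syt5 4.31 to 5.23 (SD 0.26). Syt6 spanned -3.38 to -1.73 (SD 0.43) and was well above background on 20 of 24 arrays. Syt5 and Syt6 were both lowest on saline replicate 4.

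At the active zone, Unc13b had the smallest p of any member in chronic against saline. Munc13 proteins open syntaxin and prime vesicles for fusion. Unc13b levels ran from -4.40 to -2.99 in saline units (median -3.72), -3.75 to -3.05 in acute units (median -3.45) and -3.58 to -2.27 in chronic units (median -3.10). The chronic units lay higher as a group, with overlap. Its probe was dim, well above background on 4 saline, 5 acute and 6 chronic arrays of 8 each. Chronic minus saline was 0.63 (SE 0.26, 95% limits 0.08 and 1.18, 6 units a group, limma with Benjamini-Hochberg adjusted p = 1). The difference was 1.05 and 1.19 within slides 1 and 2 and -0.89 within slide 3.

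Bsn, the giant scaffold bassoon, had the next smallest p after Syt7 in acute against saline. Its units ran from 3.96 to 4.92 in saline (median 4.69), 4.69 to 5.19 in acute (median 4.80) and 4.62 to 4.98 in chronic (median 4.75). The lowest was saline replicate 4, the groups overlapped, and the difference of 0.23 (SE 0.14, limma with Benjamini-Hochberg adjusted p = 0.999) was -0.21 within slide 1. Pclo, the related scaffold piccolo, spanned -1.31 to 0.05 over arrays, and its 4 kept probes all differed by under 0.03 in size between chronic and saline. Rims1 and Rims2 are scaffolds that link Rab3 to calcium channels. Rims1 spanned 1.44 to 2.57 and Rims2 0.95 to 1.82. Rims2 was higher in both MDPV groups than in saline on each slide, with differences of 0.15 and 0.19 (SE 0.11) that were not called. Within slides 1, 2 and 3 the acute difference was 0.02, 0.38 and 0.07. Other kept probes of Rims2 gave -0.0051 and 0.06 for acute and 0.13 and 0.14 for chronic against saline. In both comparisons 1 sign on all slides was rarer among members than over all genes, as given above. Unc13a, the main Munc13 of forebrain synapses, spanned -2.20 to -0.63.

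Of the retrieval genes, Dnm1, the GTPase that pinches off endocytic vesicles, spanned 0.92 (saline replicate 5) to 2.50 (chronic replicate 2) over arrays. Amph, amphiphysin, which brings dynamin to the vesicle neck, had an SD of 0.31 around a median of 0.70, and Snap91, a clathrin assembly protein, spanned 1.98 to 2.94. None differed by more than 0.24 in any comparison.

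**Figure D3:**
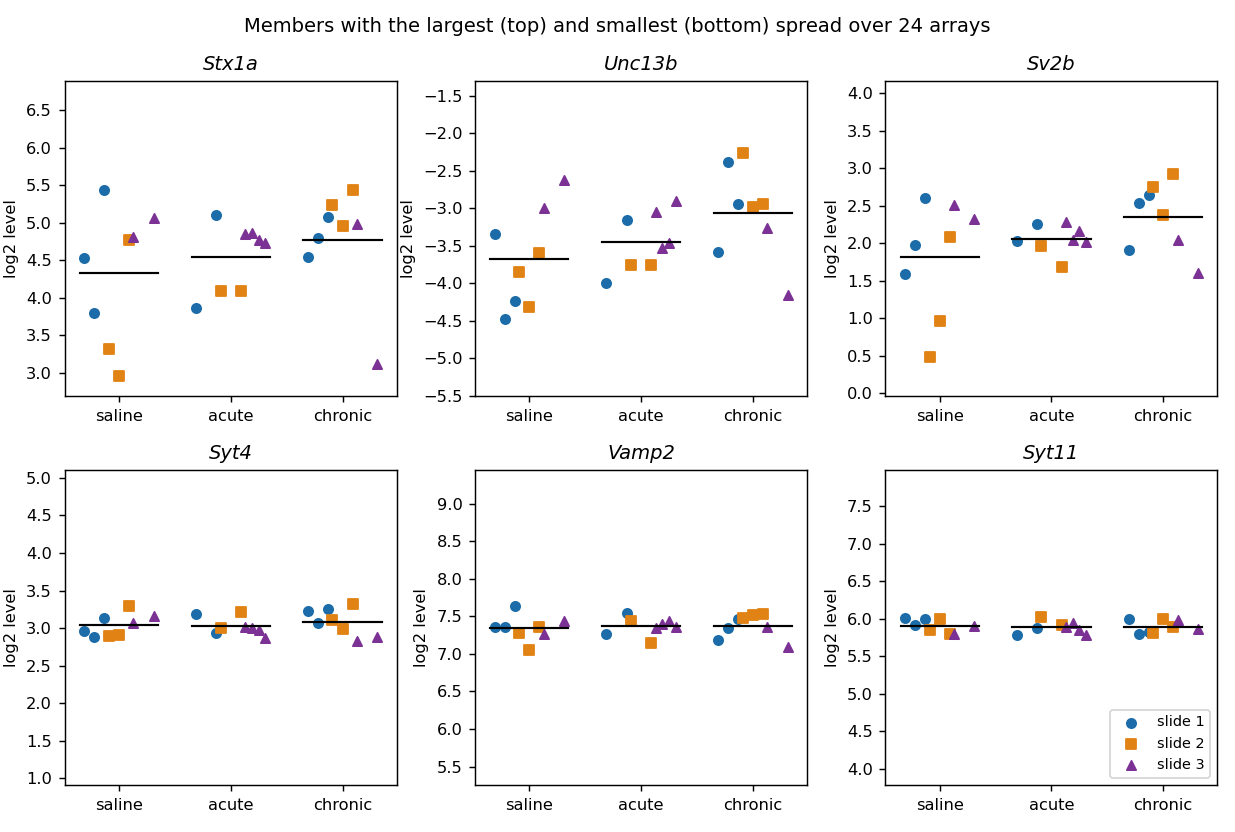
Levels (y axis, log2) of the 3 members with the largest spread (Stx1a, Unc13b, Sv2b) and the 3 with the smallest (Syt4, Vamp2, Syt11) on the 24 arrays by treatment group (x axis), marked by slide, with the mean of the 8 arrays as a bar. All panels span the same log2 range, and Stx1a falls to 2.96 and 3.32 on 2 saline arrays and 3.12 on 1 chronic array.

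The median SD over the 24 arrays was 0.300 for the members and 0.275 for all genes, and 22 of 37 members lay above the latter. Slides accounted for a median of 5.23% of the members' variance, against 6.82% for all genes, and groups for 7.02%, against 6.33%. Any split of arrays into classes takes up some variance without a true difference, and these shares are not corrected for that. Syt7 was well above background on 22 arrays and Sv2c on 23.

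Members varied together over the arrays. Among the 666 pairs the median Pearson's r over 24 arrays was 0.259, beside 0.0029 over all pairs of genes with a symbol, and 4.96% of pairs exceeded 0.8, beside 1.08%. These pairs share arrays, scaling and dissection, so the values are descriptions. The highest were Syn1 with Dnm1 (0.955), Sv2b with Snap25 (0.934), Syn1 with Sncb (0.925) and Syn1 with Rab3a (0.920). Of the 33 pairs above 0.8, 32 had r above 0.5 within each of the 3 slides, the exception being Sv2b with Cplx2 (0.36 on slide 1). A single component held 52.2% of the members' variance. Neither this component nor the mean used next was scaled per member, so members of large spread weigh most in both. Syn1 was closest to the mean of the other members (r = 0.937), followed by Sv2b and Stx1a (both 0.895), Dnm1 (0.888) and Snap25 (0.885).

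A few members ran the other way. Rab3c (r = -0.59 with the mean of the others), Syngr3 (-0.51) and Vamp1 (-0.39) varied against it, as did Syt11 and Rims2 more weakly (-0.29 and -0.25). Rab3c and Syngr3 varied together (r = 0.823, and 0.878, 0.744 and 0.865 within slides). The lowest pairs were Vamp1 with Syt6 (-0.79) and Rab3c with Syt6 (-0.78), which were below -0.74 on every slide. Paralogs differed, since Rab3a and Rab3b were at 0.855 with each other while Rab3c opposed Syn1 at -0.72.

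**Figure D4:**
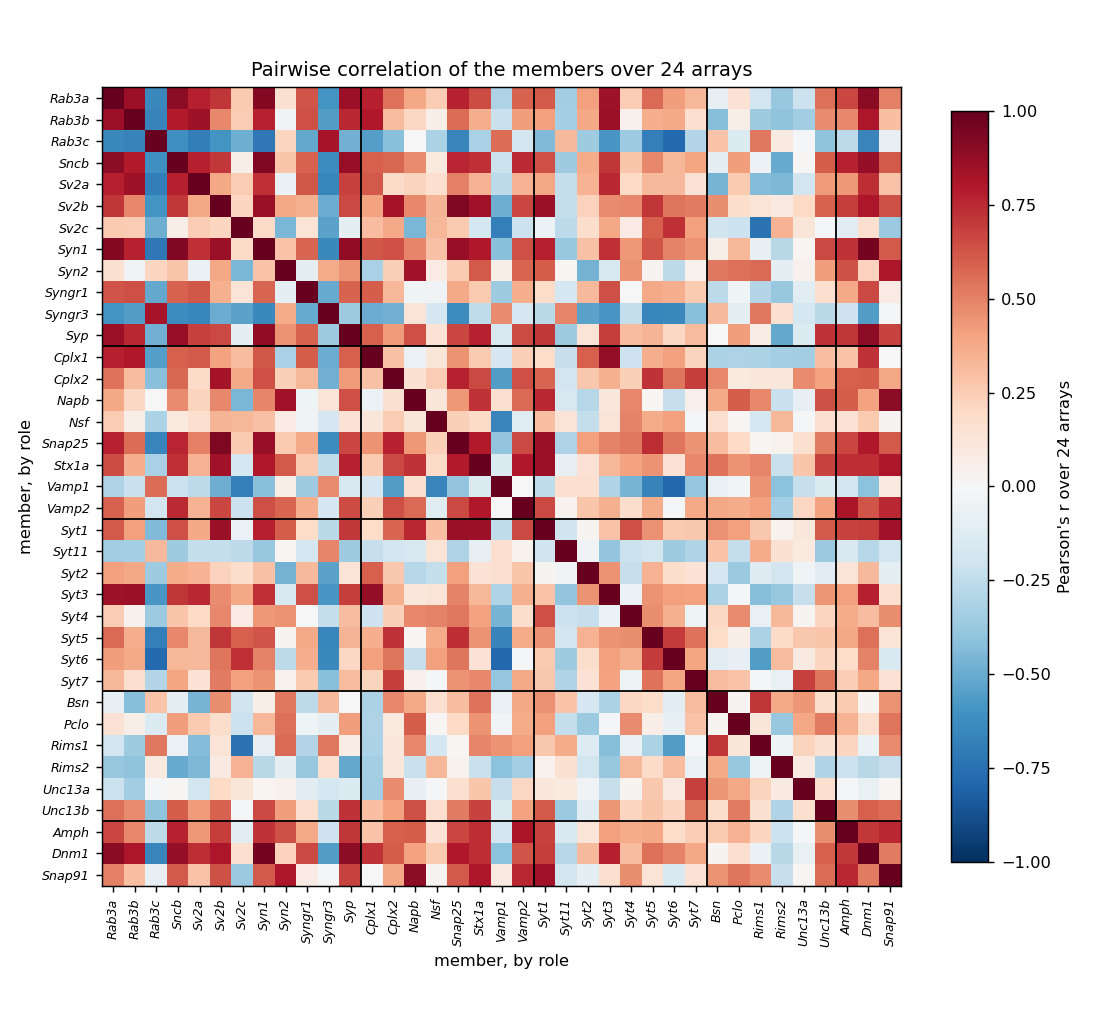
Pearson's r of each pair of the 37 members over 24 arrays (colour, from -1 to 1), with members ordered by role on both axes and lines between roles. Syn1, Dnm1, Rab3a, Sncb and Syp are red with each other, and Rab3c, Syngr3 and Vamp1 are blue with most of them.

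Each member was then set against 4 marker lists over the 18 units, by Pearson's r with two-sided tests of 100000 permutations and Benjamini-Hochberg adjustment over 83304 relations, those of all genes with the lists. Of 148 member relations 11 were called. With the cortex list 6 of 37 members were called, all positive, against 3.61% of all genes. With the thalamus, septum and pallidum list 3 were called, all negative, against 3% of genes. The striatal projection neuron list had 1 call, positive, against 4.23%, and the oligodendrocyte list 1, positive, against 2.72%. The median r of members with the cortex list was 0.532.

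Stx1a followed the cortex list most closely. Pearson's r was 0.977 (permutation p = 1e-05, the smallest that 100000 permutations can give, adjusted p = 0.0031) and Spearman's rho 0.920 (permutation p = 1e-05, adjusted p = 0.0080). The relation was 0.973, 0.989 and 0.989 within slides 1, 2 and 3 (8 arrays each), and 0.989, 0.945 and 0.974 within the saline, acute and chronic groups (6 units each). Without the 2 units farthest from the median of the list, saline replicate 4 and the saline unit of replicates 2 and 5, r was 0.934. Single cortex markers gave a like picture over the 24 arrays, since r of Stx1a was 0.961 with Neurod2, 0.946 with Slc17a7, which loads glutamate into the vesicles of cortical neurons, 0.941 with Fezf2 and 0.939 with Neurod6. Rorb was the exception at 0.138. Slc17a7 was well above background on 21 arrays and Tbr1 on 9.

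The other members called with the cortex list were Snap25 (r = 0.876), Syt1 (0.855), Sv2b (0.848), Syn1 (0.819) and Dnm1 (0.694). Their adjusted permutation p-values for r were 0.0044 for Snap25 and Sv2b, 0.0072 for Syt1, 0.0031 for Syn1 and 0.040 for Dnm1. All 5 were positive within each slide. Without the 2 farthest saline units they were 0.699, 0.597, 0.644, 0.745 and 0.585 in that order, so part of their size rests on those units. The lowest relations were those of Rab3c (-0.44, adjusted permutation p = 0.284) and Syngr3 (-0.42, adjusted permutation p = 0.323), neither called.

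**Figure D5:**
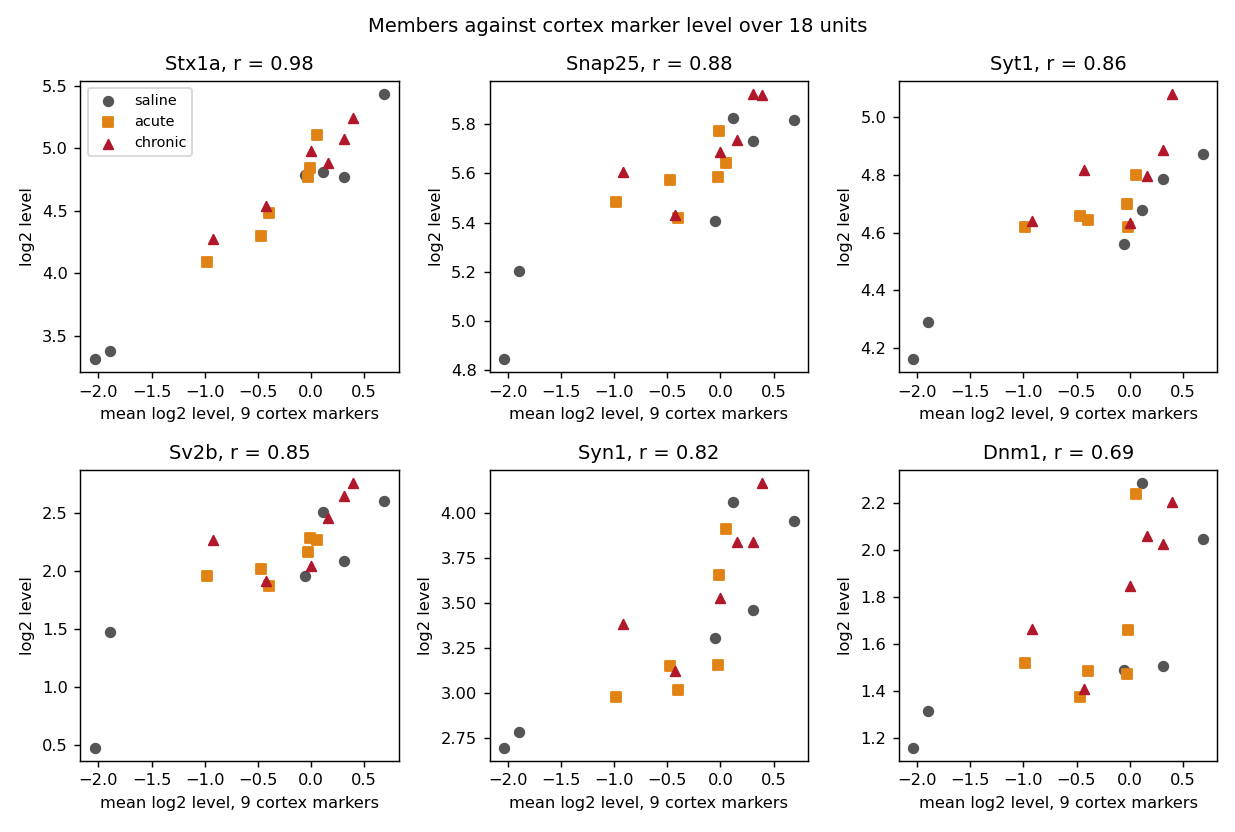
Level of the 6 members called with the cortex list (y axis, log2) against the mean level of 9 cortex markers (x axis, log2) over 18 units, marked by treatment group. Stx1a follows the cortex level along its whole range, and 2 saline units lie far to the left in every panel.

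With the thalamus, septum and pallidum list, Sv2b (r = -0.82, adjusted permutation p = 0.049), Syt5 (-0.79, adjusted permutation p = 0.017) and Snap25 (-0.77, adjusted permutation p = 0.046) were called by r, and none by rho. Leaving out saline replicate 4 and the saline unit of replicates 2 and 5 brought these to -0.25, -0.60 and -0.28. Vamp1 (0.67, adjusted permutation p = 0.202) and Rab3c (0.60, adjusted permutation p = 0.056) had the highest r with that list and were not called. With the striatal projection neuron list Sv2c was called by both measures (r = 0.697, adjusted permutation p = 0.044, rho = 0.777, adjusted permutation p = 0.032). Its r was 0.840, 0.657 and 0.673 within slides and 0.690 without saline replicate 4 and chronic replicate 4, the farthest from the median. Within the saline, acute and chronic groups (6 units each) it was 0.913, 0.555 and 0.050. Without saline replicate 4 it was 0.555. Leaving out the saline unit of replicates 2 and 5 as well brought it to 0.514. Syt6 followed (0.69, adjusted permutation p = 0.081), and Vamp1 (-0.69, adjusted permutation p = 0.126) and Napb (-0.45, adjusted permutation p = 0.304) were lowest.

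Vamp1 was the member called with the oligodendrocyte list, at r = 0.740 (adjusted permutation p = 0.030) and rho = 0.472 (adjusted permutation p = 0.302). Without saline replicate 4 and chronic replicate 7 it was 0.325. Syt2 came next (0.47, adjusted permutation p = 0.259), and Syt1 (-0.68, adjusted permutation p = 0.060) and Cplx2 (-0.66, adjusted permutation p = 0.082) were lowest with that list.

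Several members had more than 1 kept probe, 15 in all with 21 other probes. The median r of another probe with the probe used was 0.528 over 24 arrays, and 11 of 21 reached 0.5. Syn1 had the highest, 0.976, and its 2 probes gave chronic minus saline differences of 0.27 and 0.25. Syngr1 had the lowest, as given above, followed by Syt7 (0.02), Rims1 (0.11), Rims2 (0.14 and 0.43) and Syt11 (0.24). In chronic against saline 15 of 21 had the sign of the probe used. The other kept probes were at 0.32 for Syt2, 0.40 and 0.63 for Vamp1, 0.41, 0.44 and 0.79 for Pclo, 0.53 and 0.71 for Syt1, 0.59 for Syt4, 0.63 for Cplx2, 0.66 for Syn2, 0.69 for Napb and 0.70 and 0.77 for Snap91.

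Promoter windows of RefSeq's GRCr8 were matched by symbol for 30 of the 38 members. The GC box GGGCGG, on either strand, was in 24 of these 30 and in 33.1% of all 33469 windows of that length, and the median GC content was 64.2% for members and 51.7% for all. No member window held TATAAA, which 14.2% of all did. The cyclic AMP response element TGACGTCA, which holds the shorter TGACG on both strands, was in 2 member windows, those of Syn1 and Vamp1, and in 1.83% of all. These windows are shown because they are the member windows that hold this match, in capitals, while Syn1 and Vamp1 varied in opposite directions over the arrays (r = -0.42). The Syn1 window is the plus strand of chrX:3725495-3725794 with its match at -190 from the start, and the Vamp1 window the plus strand of chr4:159698644-159698943 with its match at -71. A match describes the letters and not a bound site.
Syn1 promoter: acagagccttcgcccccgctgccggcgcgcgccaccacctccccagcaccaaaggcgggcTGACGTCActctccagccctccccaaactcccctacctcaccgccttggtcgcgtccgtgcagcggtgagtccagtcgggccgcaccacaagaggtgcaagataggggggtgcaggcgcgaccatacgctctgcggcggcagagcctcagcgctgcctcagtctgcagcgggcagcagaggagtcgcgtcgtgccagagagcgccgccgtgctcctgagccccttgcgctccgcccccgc
Vamp1 promoter: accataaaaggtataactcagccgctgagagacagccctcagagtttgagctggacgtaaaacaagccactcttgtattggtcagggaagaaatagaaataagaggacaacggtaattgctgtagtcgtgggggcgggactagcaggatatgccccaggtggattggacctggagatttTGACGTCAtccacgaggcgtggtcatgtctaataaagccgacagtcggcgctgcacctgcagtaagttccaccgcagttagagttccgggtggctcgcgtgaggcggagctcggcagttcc

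Other genes of exocytosis and endocytosis were also not called. Of 101 listed, 95 were tested and 0 were called in any comparison by limma. At an unadjusted p under 0.05 there were 2 in acute against saline, 3 in chronic against saline and 1 in chronic against acute. Over all genes the shares at that p were 1.65%, 2.94% and 2.49% in that order. The smallest p in acute against saline were those of Cplx3, a complexin of retina and some cortical neurons (1.01, SE 0.43), and Sytl4, a synaptotagmin-like Rab effector (-0.61, SE 0.29). In chronic against saline they were Rab3d, a Rab3 paralog of secretory cells (0.54, SE 0.17), and Sytl4 (-0.72, SE 0.29), and in chronic against acute Napg, a relative of Napb (0.31, SE 0.14), and Bin1, an amphiphysin relative (0.23, SE 0.11). The median chronic minus saline difference of these 95 genes was 0.04, with 58 higher. Over all genes it was 0.00, with 10473 of 20902 higher.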

How the data were processed

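Agilent Feature Extraction (version 10.7 per the submitters' processing notes) gave an intensity per spot that, per the file headers, had been background-subtracted and spatially detrended but not scaled between arrays. The scanner software's 0 or 1 marks (well above background, saturation, uneven spots) were used as deposited. The authors' deposited value table holds log2 values in the rank order of those signals, and how it was made is not given in the sources used here. Probe coordinates are those of rn4 per the file headers.

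Spots marked uneven or as outliers were dropped, spots of a probe averaged, and log2 signals set against the array's upper quartile. The filter asked that, in some group, a share of 0.5 or more of its arrays had the probe well above background, which left 26259 of 45598 non-control probes, and each symbol took its probe with the highest mean (20902 genes, of which 12734 have a symbol in RefSeq's GRCr8). Title letters shared by arrays were taken to mark 1 unit, and the groups were compared with limma 3.58.1 (lmFit, eBayes, all 3 groups in 1 fit, Benjamini-Hochberg threshold 0.05). The fit was first tested on simulated data. The arrays' number limits the precision. Arrays of a shared letter were not alike beyond other arrays, since the estimated correlation within letters was -0.36 over all genes. They always lay on different slides, so likeness within letters cannot be told apart from slide differences. Units of a single array and units averaged over arrays had equal weight in the fit.

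Marker relations used R 4.3.3, with 1000 permutations for every gene and 100000 for members and for genes at a p of 0.1 or less. Adjustment ran over all genes and 4 lists. Adjustment over the members' relations alone had been planned and run, and it was replaced after its values were seen, because members chosen with results known should have no adjustment of their own. The version given here calls fewer relations. Figures used Python 3.11.15 and matplotlib 3.10.9.

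The members, the marker lists and the list of other vesicle genes were chosen with earlier results of these data known. Members given in full are, by rule, the 3 with the smallest p in each comparison, the 3 largest and smallest SDs, and the 2 highest and lowest relations to each list. The plan also named the 3 members with the highest and the 3 with the lowest level. Of these, Cplx2 and Syt6 are not given by group. Other examples were chosen after their values were seen. Alternatives were quantile normalization, normexp (offset 50), the authors' values, other filters and probe rules, other uses of letters and slides, only the compared groups, dropped spots kept, and each unit left out in turn. Relations without named saline units or with normexp and the authors' values were added after seeing the data.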

Additional observations from a re-analysis of the deposited data

Results flagged for a closer look

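In 111 groups of 6 units (37 members, 3 groups), 8 held a unit set apart from the rest by a gap above Dixon's 95% critical value, which chance passes in about 1 of 20 groups. Saline replicate 4 accounted for 4 of these, with Vamp1 highest at 5.03 (next 4.24) and Cplx2 at 6.28, Nsf at 3.04 and Bsn at 3.96 lowest (next 6.76, 3.63 and 4.58). Chronic replicate 1 was highest in Syngr3 at 4.76 (next 4.28) and in Rab3c at -0.67 (next -1.15), a pair of members that varied together over the arrays. Acute replicate 2 was highest in Syp at 1.00 (next 0.35) and in Dnm1 at 2.24 (next 1.66), which also varied together. The members of such a pair are not separate evidence that the unit stands apart, and the cause was not tested. Every unit flagged was a single array. Arrays averaged into units, among them saline replicate 5 and chronic replicate 8, were tested only as means, in which a low array is diluted.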

How the results depend on the processing

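No member was called in any comparison or in the F test under any of the alternatives run. They include each slide alone, 24 arrays as independent samples and each unit left out. No other gene was called in any comparison under them either, so the absence of calls is not particular to the members. The share of all genes called in the F test under them is not given here. The median member difference moved by more than the spread between units with single slides, to -0.13 (acute against saline, slide 3), to 0.36 and -0.26 (chronic against saline, slides 2 and 3) and to 0.27 and -0.12 (chronic against acute, slides 2 and 3). With each unit left out it lay between -0.03 and 0.07 for acute against saline, turning negative without the saline unit of replicates 2 and 5 (-0.03) or saline replicate 4 (-0.0086), as it also did with quantile normalization (-0.0033), the authors' values (-0.0017) and probes well above background on all arrays (-0.0011), between 0.06 and 0.15 for chronic against saline and between 0.06 and 0.13 for chronic against acute. Among the members with the 3 smallest p in each comparison, the directions that turned with 1 slide alone were those of Syt7 (-0.16) and Bsn (-0.21) in acute against saline on slide 1, and of Unc13b (-0.89), Syt1 (-0.34) and Sv2b (-0.59) in chronic against saline on slide 3. Stx1a (-0.88), outside that choice, was also negative on slide 3 in chronic against saline, where members with 1 sign on all slides numbered 2 of 37, and 1 with quantile normalization. Called relations to marker lists numbered 34 with 24 arrays as independent samples, which has more samples. They numbered between 9 and 14 with the other scalings and the authors' values. The shares of all genes called in those settings are not given here, so these counts cannot be read as a result about the members. The cause of the slide differences was not tested. No paired analysis was possible because the labels give the groups no shared replicate numbers.

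The arrays give no molecule counts, and 4 members had probes not well above background on some arrays, Unc13b on the most.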
